A study of Flaveria ramosissima and Flaveria robusta and Flaveria sonorensis with 9 samples.

Results

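The genes described here changed in opposite directions at low CO2 in the leaves of a C3 and a C4 species of Flaveria. They were selected on measured values. Each had a mean of at least 1 TPM (a measure of transcript abundance relative to all transcripts of a library) in each of 4 species. The low CO2 change of a species was log2(median TPM + 1) at low CO2 minus the same at control CO2, with 3 libraries on each side. A gene was taken when its changes in F. robusta (C3) and F. trinervia (C4) had opposite signs and were each at least 0.4 in size. Its low CO2 and control libraries also had to lie apart in both species. Of 8632 genes that passed the level minimum, 155 met the rule, which is 1.80%. Of these, 49 rose in F. robusta and fell in F. trinervia (C3-up/C4-down genes), and 106 fell in F. robusta and rose in F. trinervia (C3-down/C4-up genes). The changes in F. robusta and F. trinervia are therefore a description with no test. The question the data could address was on which side the C3-C4 species F. sonorensis and F. ramosissima fell.

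In C3 plants Rubisco fixes CO2 directly in mesophyll cells, and it also takes up oxygen, which starts photorespiration. Low CO2 favours that reaction with oxygen. In C4 plants phosphoenolpyruvate carboxylase captures carbon in the mesophyll, and CO2 is released next to Rubisco in the bundle sheath, where it stays concentrated. C3-C4 plants are intermediate: Type I plants bring photorespiratory CO2 back to the bundle sheath, and Type II plants also have some C4 cycle activity.

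Newly expanded mature leaves were sequenced from 4 species. F. robusta is labelled C3 and F. trinervia C4. Of the intermediates, F. sonorensis is labelled Type I and F. ramosissima Type II. Plants of each species were kept at a control CO2 level, labelled 380, or for 4 weeks at a low level, labelled 100. The unit that the labels attach to these levels is that of light, so the numbers are given without it. All 8 groups shared 22 °C, 70% humidity, days of 16 h light and 8 h dark, and light at 200 µmol photons per square metre each second. No allele, transgene or other agent is named. Each photosynthetic type is represented by 1 species, so type and species cannot be told apart.

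The labels list 1 sample per species and CO2 level, and the table holds 3 numbered libraries of each, 24 in all. The sources do not say whether the libraries came from separate plants or whether there was more than 1 growth run. The p-values below therefore measure only the spread between these libraries, which may be technical. TPM does not hold the number of reads, so depth is unknown and counting error could not be computed. The columns summed to 85.9% to 92.6% of the TPM total. The median standard deviation (SD) between libraries over the 155 genes was 0.49 (log2) in F. ramosissima at control CO2 and 0.29 there at low CO2, against 0.19 to 0.21 in the other 6 groups. The IDs carry no gene names. Functions are therefore not given, and the leaf label was not checked against marker genes. In whole leaves, fewer cells of a type and less RNA per cell cannot be told apart.

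The C3-up/C4-down genes rose in F. robusta by a median of 0.74 (log2; range 0.41 to 1.75) and changed in F. trinervia by a median of -0.76 (range -2.72 to -0.41). Their median level went from 8.48 TPM at control to 15.25 TPM at low CO2 in F. robusta. In F. trinervia it went from 9.32 to 4.93 TPM. The C3-down/C4-up genes changed in F. robusta by a median of -0.81 (range -4.79 to -0.41) and in F. trinervia by a median of 0.71 (range 0.41 to 3.34). Their median level went from 19.3 to 9.13 TPM in F. robusta and from 16.6 to 26.8 TPM in F. trinervia. Over all 8632 genes the median change was -0.03 in F. robusta and 0.02 in F. trinervia.

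**Figure D1:**
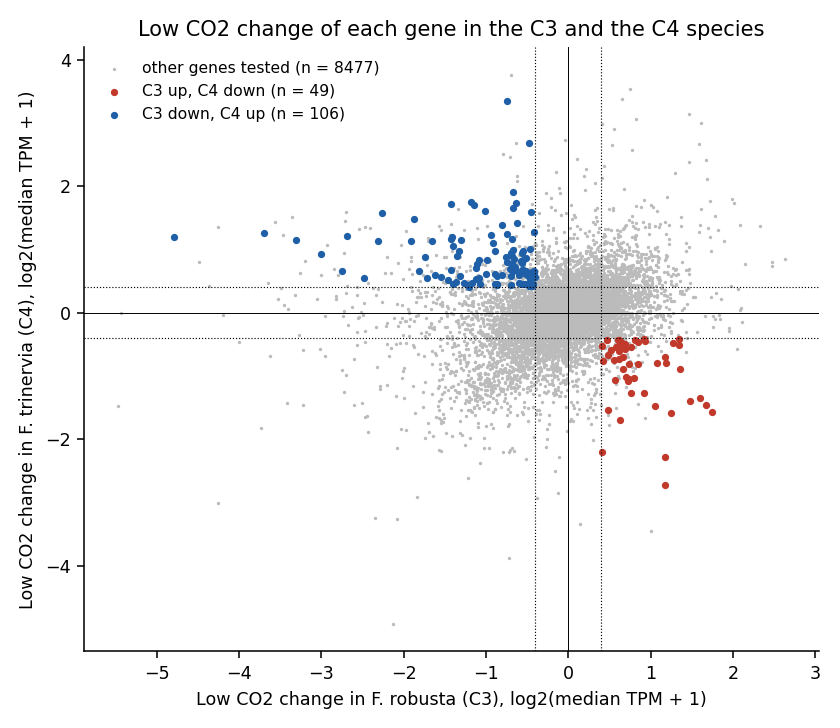
Low CO2 change of each tested gene in F. robusta (horizontal axis) and F. trinervia (vertical axis), as the difference of log2(median TPM + 1) between low CO2 and control. Red points are the 49 C3-up/C4-down genes, blue points the 106 C3-down/C4-up genes, grey points the other genes tested, and dotted lines mark a change of 0.4. The coloured points lie in the upper left and lower right corners because the rule put them there, and the blue points reach -4.79 in F. robusta.

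The falls in F. robusta had the longer tail. A fall of at least 2 (log2) was seen in F. robusta for 9 of the 106 C3-down/C4-up genes, whereas 0 of the 49 C3-up/C4-down genes rose by that much. The longer tail of falls was not particular to the members. All 8632 genes ranged from -5.48 to 2.64 in F. robusta. In F. trinervia a change of at least 2 was seen for 2 C3-down/C4-up genes and 3 C3-up/C4-down genes. Both changes were at least 1 in size for 17 C3-down/C4-up and 8 C3-up/C4-down genes. The 3 members nearest to the limit had a smaller change of 0.41 in size each, and the 3 nearest genes outside it had 0.399, 0.394 and 0.393. Without a limit on size, 390 genes changed in opposite directions with libraries apart in both species.

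Opposite changes were fewer than changes in the same direction. By the same limits, 399 genes rose in both F. robusta and F. trinervia and 641 fell in both. Of genes past the limits in this pair, 13.0% thus went opposite ways. The share was 11.6% for F. robusta with F. sonorensis, 9.49% for F. sonorensis with F. trinervia and 5.88% for F. sonorensis with F. ramosissima. It was 5.31% for F. robusta with F. ramosissima and 4.58% for F. ramosissima with F. trinervia. Differences between these shares were not tested.

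The rule used the C3-C4 species for the minimum level only, so their directions were free. Among the 49 C3-up/C4-down genes, 37 changed in the direction of F. trinervia in F. sonorensis and 12 in that of F. robusta. In F. ramosissima 31 took the F. trinervia direction and 18 the F. robusta direction. Among the 106 C3-down/C4-up genes, 60 took the F. robusta direction and 46 the F. trinervia direction in F. sonorensis. The numbers in F. ramosissima were 61 and 45. In both groups of genes and both species, the more frequent sign of the change was below 0.

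A change below 0 was also the more frequent one over all genes. In F. sonorensis the change was above 0 for 43.0% of all genes tested, for 24.5% of the C3-up/C4-down genes and for 43.4% of the C3-down/C4-up genes. The latter share is near that of all genes. In F. ramosissima the change was above 0 for 34.8% of all genes, 36.7% of the C3-up/C4-down genes and 42.5% of the C3-down/C4-up genes. The C3-up/C4-down genes in F. ramosissima were thus near the share of all genes.

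These shares moved with the scaling of the libraries. Scaling by the median ratio raised the all-gene median by 0.19 (log2) in F. ramosissima, 0.11 in F. sonorensis, 0.08 in F. robusta and 0.02 in F. trinervia. Of the 49 C3-up/C4-down genes, the share with a change below 0 in F. sonorensis was 75.5% as deposited, 67.3% after median-ratio scaling and 63.3% after quantile normalization. It was above that of all genes each time, which was 56.9%, 45.9% and 46.4%. In F. ramosissima the more frequent direction turned: 53.1% of these genes had a change above 0 after either scaling, against 51.7% and 50.8% of all genes. Of the C3-down/C4-up genes, 59.4% and 60.4% had a change above 0 in F. ramosissima after the scalings. In F. sonorensis 52.8% and 50.0% of them did, against 54.1% and 53.4% of all genes. A majority side of the C3-down/C4-up genes therefore depended on the scaling in both C3-C4 species. Relative to all genes, their share above 0 in F. ramosissima was higher each time. It was 42.5% against 34.8% as deposited, 59.4% against 51.7% after median-ratio scaling and 60.4% against 50.8% after quantile normalization. This difference was not tested.

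The median change of the C3-up/C4-down genes was -0.37 in F. sonorensis (range -2.84 to 2.17) and -0.19 in F. ramosissima (range -1.77 to 1.34). The median over all genes was -0.07 and -0.18. For the C3-down/C4-up genes it was -0.11 in F. sonorensis (range -3.08 to 2.50) and -0.07 in F. ramosissima (range -2.12 to 2.27). The C3-C4 species thus held both directions within each group of genes. In size, a change of at least 1 was seen for 25 of the 155 genes in F. sonorensis (5 C3-up/C4-down and 20 C3-down/C4-up) and for 24 in F. ramosissima (9 and 15). Over all genes the shares were 8.53% and 8.64%.

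**Figure D2:**
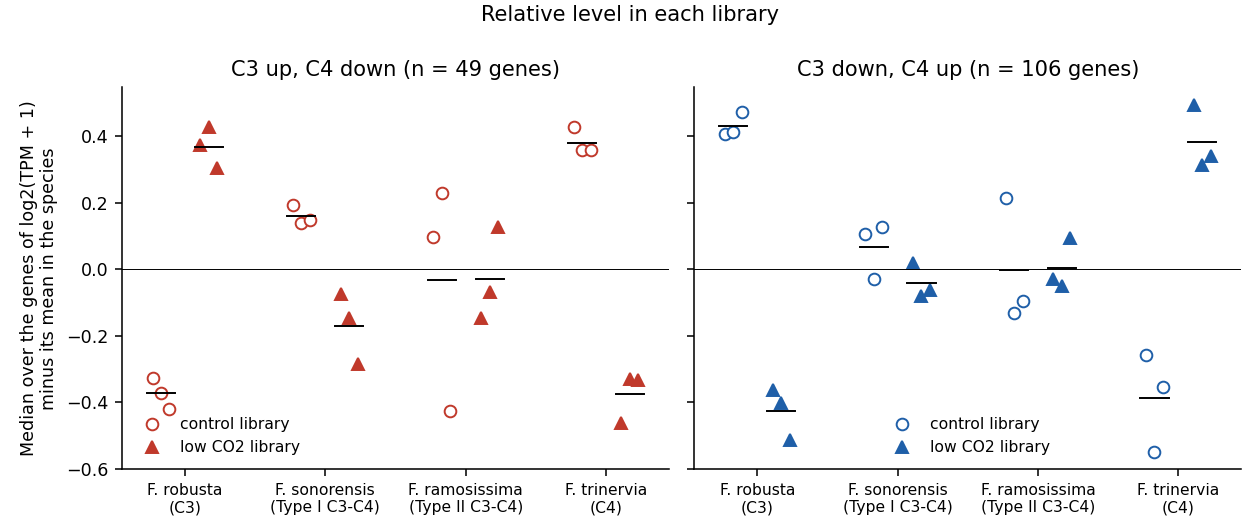
Median over the 49 C3-up/C4-down genes (left) or the 106 C3-down/C4-up genes (right) of the log2(TPM + 1) value of a library minus the mean of that gene over the 6 libraries of the species. Circles are control and triangles low CO2 libraries, and bars are the mean of 3 libraries. In F. sonorensis the left-hand medians lay between 0.14 and 0.19 at control and between -0.29 and -0.08 at low CO2, whereas in F. ramosissima the libraries overlapped in both panels.

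Per library, the C3-up/C4-down genes as a group separated the CO2 levels in F. sonorensis. Relative to the mean of the species, their median was 0.14 to 0.19 in the control libraries and -0.29 to -0.08 in the low CO2 libraries. In F. ramosissima the control libraries gave 0.10, 0.23 and -0.43 and the low CO2 libraries -0.15, -0.07 and 0.13. Control library 3 was thus the lowest of the 6 libraries there, as it was over all genes tested. The all-gene medians in F. ramosissima were 0.29, 0.08 and -0.28 at control and -0.12, -0.10 and 0.10 at low CO2. In F. sonorensis the all-gene medians overlapped between the CO2 levels. They were 0.07, -0.04 and 0.07 at control and 0.03, -0.09 and -0.03 at low CO2. The C3-down/C4-up genes did not separate the CO2 levels in either species. Their medians in F. sonorensis were 0.11, -0.03 and 0.13 at control and 0.02, -0.08 and -0.06 at low CO2. In F. ramosissima they were 0.22, -0.13 and -0.10 at control and -0.03, -0.05 and 0.10 at low CO2.

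The changes in F. sonorensis were tested by limma, a linear model fitted across all genes with adjusted p below 0.05 as the threshold. Of the 155 genes, 76 passed it. Of the 49 C3-up/C4-down genes, 19 were lower at low CO2 (38.8%) and 6 higher (12.2%). Over all genes the shares were 19.9% lower and 13.0% higher. Of the 106 C3-down/C4-up genes, 30 were lower (28.3%) and 21 higher (19.8%). In terms of sides, 40 genes changed with F. trinervia and 36 with F. robusta. The larger side depended on the fit: with library weights it was 45 against 48, and in the model of all 24 libraries 19 against 24. The shares of all genes called higher or lower in F. sonorensis were not counted in those alternative fits. The larger side is therefore not read as a trait of the members.

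A count without a model gave like numbers. With a change of at least 0.4 and libraries apart in F. sonorensis, 6 and 21 genes were higher and 19 and 30 lower in the C3-up/C4-down and C3-down/C4-up groups. Over all genes 12.2% were higher and 19.4% lower by that count. Of the 76 genes of either count, 71 were in both. The 12.2% of C3-up/C4-down genes that were higher was thus at the share of all genes, and the shares of C3-down/C4-up genes were above it in both directions.

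Among the genes that passed the test in F. sonorensis, the falls reached further than the rises in both groups. The 19 C3-up/C4-down genes that fell had a median change of -0.85 (range -2.75 to -0.36), and the 6 that rose had a median of 0.62 (range 0.42 to 2.04). The 30 C3-down/C4-up genes that fell had a median of -0.88 (range -3.45 to -0.37), and the 21 that rose had a median of 0.80 (range 0.41 to 2.15). These are fitted changes of genes that passed the test, which excludes small ones. F. ramosissima had the sign of F. sonorensis for 14 of the 19, 3 of the 6, 21 of the 30 and 16 of the 21 genes. For scale, 64.9% of all genes had a change below 0 in F. ramosissima and 34.8% a change above 0. The shares among all genes called in F. sonorensis were not counted, so agreement beyond that of other called genes is not shown.

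In F. ramosissima 0 of the 155 genes and 0% of all genes passed limma at adjusted p below 0.05 in either direction. At an unadjusted p below 0.05, 5 C3-up/C4-down and 10 C3-down/C4-up genes were higher, and 3 and 10 lower. Over all genes 4.25% were higher and 7.96% lower at that level. The median standard error (SE) of the change over the 155 genes was 0.33 in F. ramosissima and 0.17 in F. sonorensis. With a change of at least 0.4 and libraries apart, 5 C3-up/C4-down genes (10.2%) and 12 C3-down/C4-up genes (11.3%) were higher in F. ramosissima. By the same count 5 (10.2%) and 13 (12.3%) were lower. Over all genes 5.58% were higher and 9.35% lower. Left without its control library 3, F. ramosissima had 1 of the 155 genes past the threshold. The share of all genes past it in that fit was not counted. In a single model of the 24 libraries, which shares 1 spread between species, 29 passed (18.7%), of which 15 were on the F. robusta side and 14 on the F. trinervia side. That model called 16.1% of all genes, near the share of the members.

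**Figure D3:**
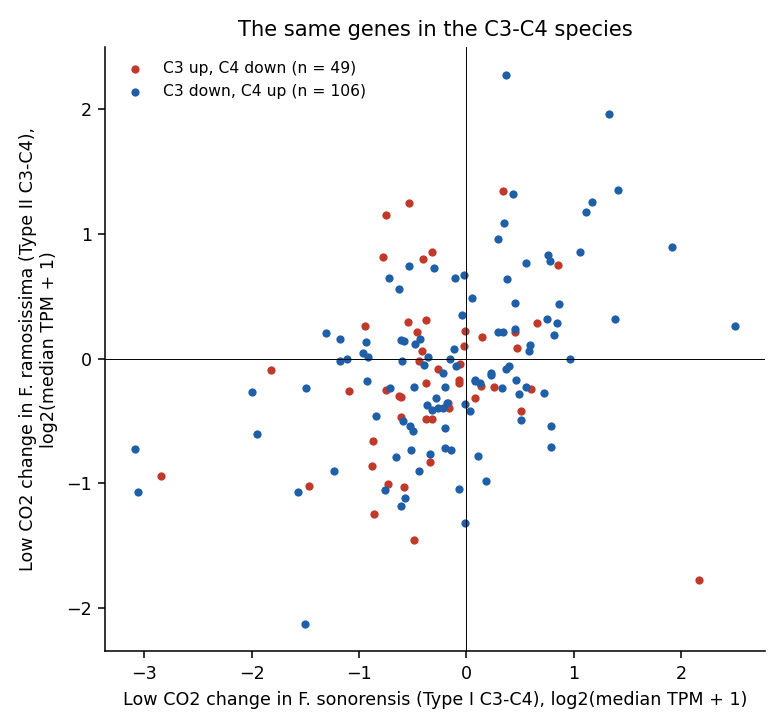
Low CO2 change of the 155 genes in F. sonorensis (horizontal axis) and F. ramosissima (vertical axis), as the difference of log2(median TPM + 1). Red points are the 49 C3-up/C4-down genes and blue points the 106 C3-down/C4-up genes. Both colours spread over all 4 quadrants, and the red point at the lower right is Gene08109.

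Taking both C3-C4 species, 52 of the 155 genes lay on the F. trinervia side in both and 48 on the F. robusta side in both. The remaining 55 were split. In 24, F. sonorensis went with F. robusta and F. ramosissima with F. trinervia, and in 31 the reverse. By group, 25 of the 49 C3-up/C4-down genes were on the F. trinervia side in both species and 6 on the F. robusta side in both. Of the 106 C3-down/C4-up genes, 42 were on the F. robusta side in both (39.6%) and 27 on the F. trinervia side in both (25.5%). For comparison, of the 399 genes that rose in both F. robusta and F. trinervia, 89.0% had a change above 0 in F. sonorensis and 87.7% in F. ramosissima. Of the 641 genes that fell in both, 89.9% had a change below 0 in F. sonorensis and 95.6% in F. ramosissima. The shares of all genes tested with a change below 0 were 56.9% and 64.9%.

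Most changes in the C3-C4 species lay between those of F. robusta and F. trinervia. Since the rule sets those 2 species apart, this is a description. Of the 49 C3-up/C4-down genes, 37 had the change of F. sonorensis and 43 that of F. ramosissima in between, and 33 had both. The order from F. robusta over F. sonorensis and F. ramosissima to F. trinervia was found in 15 of the 33, and the order with F. ramosissima nearer to F. robusta in 18. Among the 106 C3-down/C4-up genes, 84, 89 and 75 were in between, and of the 75 these orders were found in 31 and 44. F. sonorensis went beyond F. trinervia in 9 C3-up/C4-down and 11 C3-down/C4-up genes, and beyond F. robusta in 3 and 11.

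The genes with the largest opposite changes also mostly had changes below 0 in the C3-C4 species. For all genes tested, the share below 0 was 56.9% in F. sonorensis and 64.9% in F. ramosissima. By limma, 19.9% of all genes were lower in F. sonorensis. Of the 8 C3-up/C4-down genes with both changes of at least 1, F. sonorensis was on the F. trinervia side in 7, of which 5 passed limma, and F. ramosissima in 6. Of the 17 such C3-down/C4-up genes, F. sonorensis was on the F. robusta side in 11, of which 6 passed, and F. ramosissima in 13. The 9 C3-down/C4-up genes with a fall of at least 2 in F. robusta had F. sonorensis on the F. robusta side in 7 and F. ramosissima in 7. The 2 with a rise of at least 2 in F. trinervia had both C3-C4 species on the F. trinervia side.

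**Figure D4:**
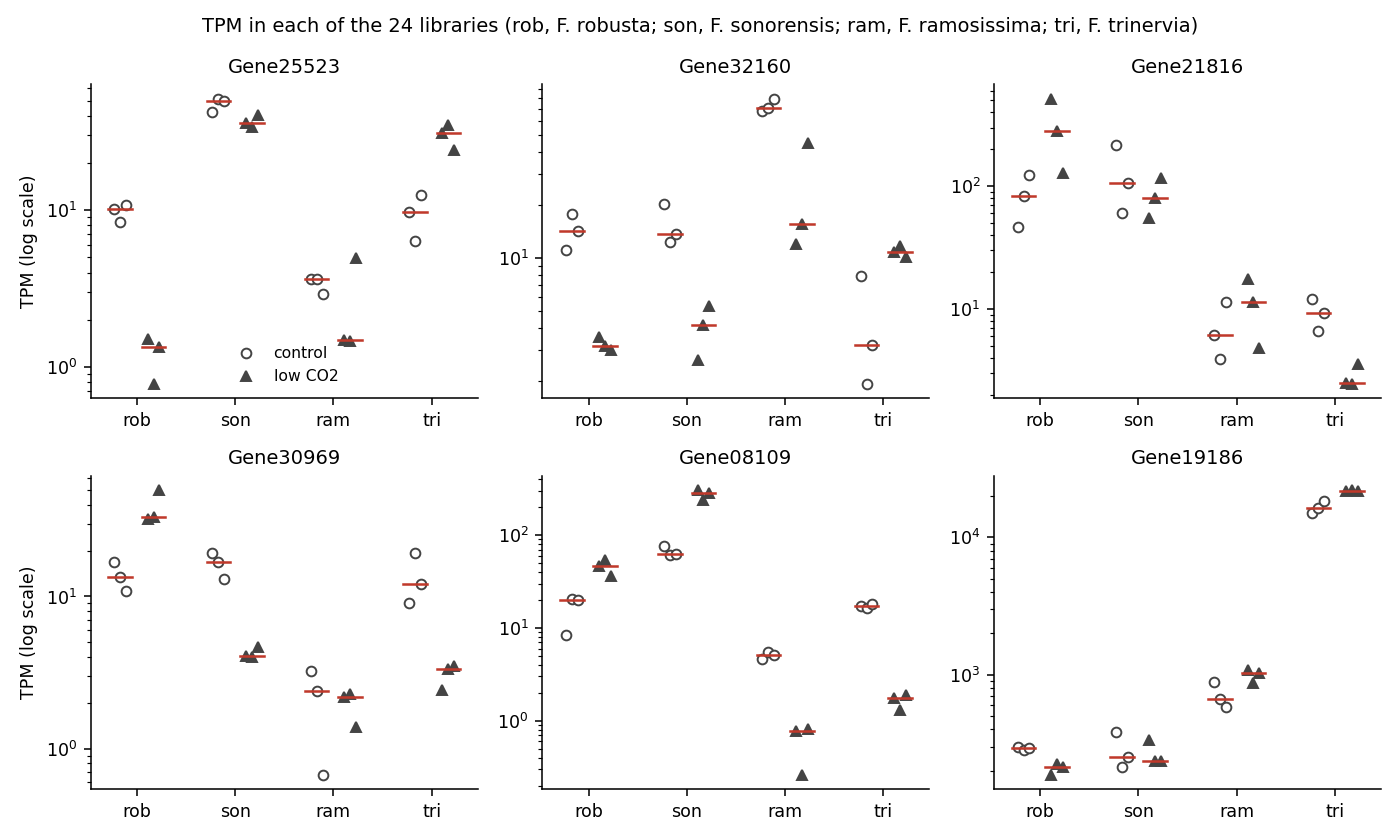
TPM of 6 genes in each of the 24 libraries, on a log axis in every panel. Circles are control and triangles low CO2 libraries, and red bars are the median of 3 libraries. Gene32160 was lower at low CO2 in every species but F. trinervia, and Gene08109 was higher at low CO2 in F. robusta and F. sonorensis and lower in the other 2 species.

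Gene21816 and Gene30969 were named by rule as the C3-up/C4-down genes of at least 10 TPM on average with the largest opposite changes. Gene21816 had 46.79, 82.79 and 122.24 TPM at control and 514.59, 281.17 and 128.4 TPM at low CO2 in F. robusta. In F. trinervia it had 11.94, 6.67 and 9.32 TPM at control and 2.49, 2.46 and 3.53 TPM at low CO2. The low CO2 libraries of F. robusta thus lay above its control libraries, by little for library 3, and those of F. trinervia below. The changes were 1.75 in F. robusta and -1.56 in F. trinervia. In F. sonorensis it had 215.8, 60.74 and 105.53 TPM at control and 55.29, 79.38 and 116.6 TPM at low CO2. In F. ramosissima it had 6.16, 3.94 and 11.29 TPM at control and 17.6, 11.41 and 4.77 TPM at low CO2. Libraries overlapped in both C3-C4 species. The fitted change was -0.47 ± 0.42 (SE, n = 3 libraries each) in F. sonorensis (limma adjusted p = 0.411) and 0.54 ± 0.50 in F. ramosissima (limma adjusted p = 0.753). Single libraries set these sizes. The change in F. sonorensis was near 0 without control library 1 (-0.0012) and -0.91 without control library 2. In F. ramosissima it was 0.16 without low CO2 library 1 and 1.004 without low CO2 library 3.

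Gene30969 had 16.73, 13.33 and 10.86 TPM at control and 32.24, 33.04 and 50.08 TPM at low CO2 in F. robusta. F. trinervia had 9.06, 19.35 and 12.11 TPM at control and 2.41, 3.36 and 3.47 TPM at low CO2. At control CO2 the libraries of these species overlapped, and at low CO2 those of F. robusta were far above. The changes were 1.25 in F. robusta and -1.59 in F. trinervia. F. sonorensis had 19.38, 16.88 and 13.07 TPM at control and 4.06, 3.98 and 4.66 TPM at low CO2. F. sonorensis was thus at the control level of F. robusta and fell as F. trinervia did, with a fitted change of -1.72 ± 0.16 (SE, limma adjusted p = 0.000167). F. ramosissima had 3.26, 2.4 and 0.67 TPM at control and 2.19, 2.3 and 1.38 TPM at low CO2. These libraries overlapped, and the fitted change was 0.02 ± 0.37 (SE, limma adjusted p = 0.993). The fitted changes of F. ramosissima and F. sonorensis differed by 1.74 ± 0.43 (SE), which did not pass the test (limma adjusted p = 0.163).

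Gene25523 and Gene32160 were named by the same rule among the C3-down/C4-up genes. Gene25523 had 10.18, 8.4 and 10.83 TPM at control and 1.51, 0.78 and 1.33 TPM at low CO2 in F. robusta. F. trinervia had 9.79, 6.4 and 12.52 TPM at control and 31.2, 35.26 and 24.32 TPM at low CO2. Both species thus held a like control level, and the low CO2 libraries moved apart by changes of -2.26 in F. robusta and 1.58 in F. trinervia. F. sonorensis had 42.11, 51.52 and 49.61 TPM at control and 36.19, 33.96 and 40.47 TPM at low CO2. F. ramosissima had 3.64, 3.64 and 2.9 TPM at control and 1.49, 1.47 and 4.98 TPM at low CO2. The libraries lay apart in F. sonorensis, but its fitted change of -0.36 ± 0.13 (SE) just missed the threshold (limma adjusted p = 0.0539). In F. ramosissima low CO2 library 3 was above the control libraries, and the fitted change was -0.40 ± 0.38 (SE, limma adjusted p = 0.760).

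Gene32160 had 11.03, 17.65 and 14.25 TPM at control and 3.55, 3.17 and 3.01 TPM at low CO2 in F. robusta. In F. trinervia it had 7.92, 1.94 and 3.2 TPM at control and 10.79, 11.68 and 10.1 TPM at low CO2. The changes were -1.87 in F. robusta and 1.49 in F. trinervia, where control library 1 stood near the low CO2 libraries. In F. sonorensis it had 20.17, 12.32 and 13.63 TPM at control and 2.66, 4.17 and 5.35 TPM at low CO2. The fall in F. sonorensis was -1.70 ± 0.24 (SE, limma adjusted p = 0.00114). In F. ramosissima it had 67.59, 71.08 and 79.73 TPM at control and 11.98, 15.53 and 44.49 TPM at low CO2. The control libraries of F. ramosissima lay above its low CO2 libraries, but the fitted change of -1.78 ± 0.46 (SE) did not pass (limma adjusted p = 0.243). The change -2.12, from medians, was the lowest of the 155 genes in F. ramosissima.

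The change itself was also compared between the C3-C4 species. At adjusted p below 0.05, 0.197% of all genes had a higher change in F. ramosissima than in F. sonorensis and 0.0927% a lower one. Of the 155 genes, 1 passed, and 37 had an unadjusted p below 0.05 (12 C3-up/C4-down and 25 C3-down/C4-up). The 37 are 23.9% of the members, against 9.72% of all genes at that level. The gene that passed was Gene08109, a C3-up/C4-down gene, which is named here after its values were seen. It had 8.43, 20.75 and 20.07 TPM at control and 46.68, 54.31 and 36.53 TPM at low CO2 in F. robusta. In F. sonorensis it had 76.85, 60.42 and 62.5 TPM at control and 306.33, 239.59 and 284.09 TPM at low CO2. In F. ramosissima it had 4.66, 5.48 and 5.05 TPM at control and 0.77, 0.26 and 0.82 TPM at low CO2. The libraries lay apart in both, above control in F. sonorensis and below it in F. ramosissima. In F. trinervia it had 17.21, 16.23 and 18.02 TPM at control and 1.76, 1.29 and 1.89 TPM at low CO2. The C3 and Type I species thus lay on one side and the Type II and C4 species on the other.

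Gene08109 had a fitted rise of 2.04 ± 0.14 (SE) in F. sonorensis (limma adjusted p = 3.39e-05). Its fitted change in F. ramosissima was -1.92 ± 0.25 (SE), which by itself did not pass (limma adjusted p = 0.0912). That size depends on the pseudocount, being -0.84 with 5 and -2.96 with 0.1. The change of F. ramosissima minus that of F. sonorensis was -3.96 ± 0.28 (SE, limma adjusted p = 7.00e-05). The changes that chose the gene were 1.18 in F. robusta and -2.72 in F. trinervia, the latter the lowest of the 155 genes in F. trinervia. Its rise in F. sonorensis, 2.17 from medians, was the highest of the C3-up/C4-down genes.

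**Figure D5:**
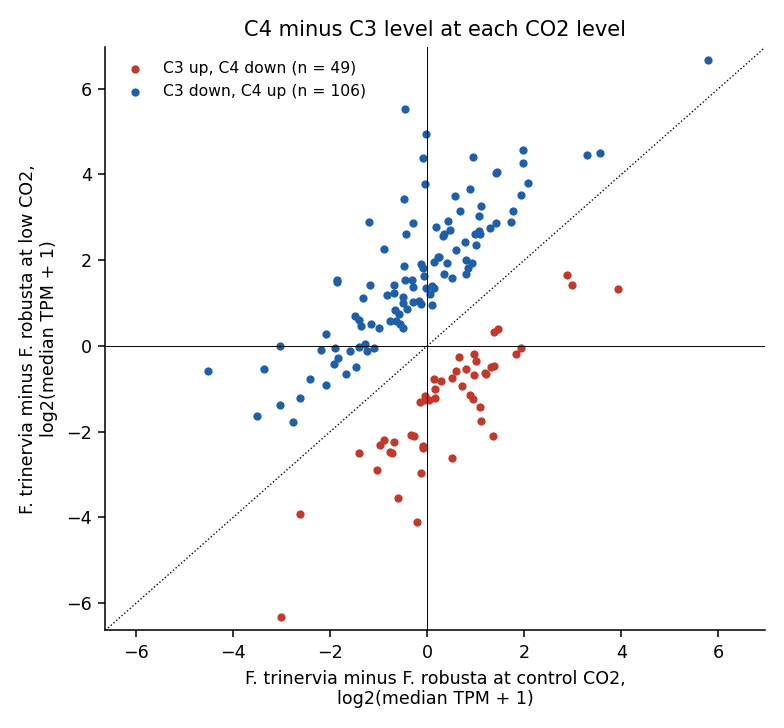
Level of F. trinervia minus that of F. robusta at control CO2 (horizontal axis) and at low CO2 (vertical axis), both as log2(median TPM + 1), for the 49 C3-up/C4-down genes (red) and the 106 C3-down/C4-up genes (blue). The dotted line marks equal gaps; blue points lie above it and red points below it by the choice of the genes. The medians went from 0.51 to -1.21 (red) and from -0.23 to 1.57 (blue).

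The rule used these F. robusta and F. trinervia values and required each gap between the species to move, so the levels are given as a description. At control CO2, 30 of the 49 C3-up/C4-down genes were higher in F. trinervia than in F. robusta, and at low CO2 5 were. The order turned for 25 of them. Of the 106 C3-down/C4-up genes, 44 were higher in F. trinervia at control and 88 at low CO2, and the order turned for 44. The reads of each species were aligned to its own genome, so species and genome annotation cannot be told apart in a level gap.

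The highest mean of a member was 249 TPM in F. robusta, 854 TPM in F. sonorensis, 938 TPM in F. ramosissima and 19182 TPM in F. trinervia. Over all genes the highest means were 42579, 41308, 23960 and 26996 TPM, so the members stayed far below them except in F. trinervia. The median of the mean TPM of the C3-up/C4-down genes was 11.2 in F. robusta, 15.5 in F. sonorensis, 5.54 in F. ramosissima and 7.04 in F. trinervia. For the C3-down/C4-up genes it was 14.7, 20.4, 9.07 and 22.2 TPM. Over all genes it was 11.4, 19.5, 7.50 and 13.0 TPM. Means under 5 TPM in F. ramosissima were held by 24 C3-up/C4-down and 24 C3-down/C4-up genes, where the pseudocount of 1 makes changes smaller. At least 100 TPM at either CO2 level in F. robusta or F. trinervia, as a median, was reached by 6 C3-up/C4-down and 24 C3-down/C4-up genes. Of these 24, F. ramosissima was on the F. trinervia side in 17 and F. sonorensis in 13. That side is a change above 0, which 34.8% of all genes had in F. ramosissima and 43.0% in F. sonorensis.

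Gene19186 was the most abundant of the 155 genes and is also named after its values were seen. This C3-down/C4-up gene had 295.85, 280.75 and 291.71 TPM at control and 185.99, 224.74 and 212.12 TPM at low CO2 in F. robusta. In F. trinervia it had 15093.2, 16212.9 and 18509.9 TPM at control and 21633.2, 22086 and 21556.8 TPM at low CO2. It was thus far higher in F. trinervia at either CO2 level, and its changes of -0.46 and 0.42 lay near the limit of the rule. In F. sonorensis it had 381.48, 211.58 and 252.42 TPM at control and 335.63, 233.57 and 234.26 TPM at low CO2. In F. ramosissima it had 886.74, 660.98 and 582.68 TPM at control and 1078.8, 870 and 1032.98 TPM at low CO2. Libraries overlapped in both. The fitted change was -0.05 ± 0.22 (SE, limma adjusted p = 0.888) in F. sonorensis and 0.50 ± 0.24 (SE, limma adjusted p = 0.467) in F. ramosissima.

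Within the species that chose the genes, the same fit called 143 of the 155 genes in F. robusta (92.3%) and 125 in F. trinervia (80.6%). Over all genes it called 34.8% in F. robusta and 24.3% in F. trinervia, and nothing is read from these counts because the rule used the same libraries. The number of genes that met the rule depended on the libraries and the scaling. Without control library 1 of F. trinervia 267 genes met it, 56 C3-up/C4-down and 211 C3-down/C4-up. After median-ratio scaling the rule gave 67 C3-up/C4-down and 89 C3-down/C4-up genes in place of 49 and 106, and after quantile normalization 65 and 93. Of the 155 genes, 100 met the rule under all 3 scalings, 37 C3-up/C4-down and 63 C3-down/C4-up. Of these 37, as deposited, F. sonorensis was on the F. trinervia side in 28 and F. ramosissima in 25, and 17 were lower and 5 higher in F. sonorensis by limma. After median-ratio scaling the numbers were 26 in F. sonorensis and 19 in F. ramosissima. That side is a change below 0. Over all genes its share was 56.9% in F. sonorensis and 64.9% in F. ramosissima as deposited, and 45.9% and 48.3% after median-ratio scaling. By limma 19.9% of all genes were lower and 13.0% higher in F. sonorensis. Of the 63, the F. trinervia side held 28 in F. sonorensis and 26 in F. ramosissima as deposited, and 33 and 34 after median-ratio scaling, so the larger side turned. For these genes that side is a change above 0. In the same order of species, it held 43.0% and 34.8% of all genes as deposited, and 54.1% and 51.7% after median-ratio scaling.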

How the data were processed

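mRNA-seq libraries of newly expanded mature leaves were read in 150 bp pairs. By the methods of the study, the authors used STAR (V2.7) for alignment to a separate genome per species and RSEM (V1.3.3) for abundance. Those methods name growth conditions that differ from the labels, and no low CO2 treatment. The deposited unit was TPM, in 1 column per library. The way in which the 4 species were joined on 1 ID is not given in the sources. Near-identical gene copies share reads in RSEM and are uncertain. F. ramosissima RNA of mixed organs (long reads) was not used here.

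The 24 columns were matched to samples through the codes that the labels give, and 0 remained unused. The table had 29566 rows, from which 8 were dropped since they share 4 IDs. The other 29558 were filtered at a mean of 1 TPM in each species. Tests used limma 3.58.1 in R 4.3.3 on log2(TPM + 1) within a species (eBayes with a variance trend, two-sided), and, for the difference of changes, on F. sonorensis and F. ramosissima together. Adjusted p-values are those of Benjamini and Hochberg over 8632 genes, and fold changes of low genes are understated by the pseudocount. TPM holds no depth, and precision therefore rests on the libraries' spread. TPM is relative within a library. The fits were tested on simulated data.

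The members and the tests were chosen with earlier results of these data known. Named IDs were, per direction, the 2 with the largest smaller change among those averaging 10 TPM or more across the 24 libraries. As 0 of the IDs carry a name, no others were named by rule. Alternatives covered the pseudocount, the minimum level and change, overlap, scaling, library weights, a model of 24 libraries, leaving out each library and the replicate block. The count of genes that met the rule under all 3 scalings was added after seeing the data. No pairing by library number was used in the main tests. The correlations of same-numbered deviations ran from -0.23 to 0.41, reaching 0.32 and 0.41 for libraries 1 and 2 of F. trinervia. With 3 libraries on each side, these values cannot settle whether the numbers pair the samples.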

Additional observations from a re-analysis of the deposited data

Results flagged for a closer look

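The low CO2 change of Gene08109 differed between the C3-C4 species by a test of the difference itself. The change of F. ramosissima minus that of F. sonorensis was -3.96 (log2, limma adjusted p = 7.00e-05), with the 3 low CO2 libraries above the 3 control libraries in F. sonorensis and below them in F. ramosissima.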

How the results depend on the processing

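Of the counts by side, none moved by over 1.5 times under the alternatives run. On the F. robusta side lay 66 to 77 genes in F. sonorensis and 68 to 89 in F. ramosissima. By direction, it held 12 to 18 C3-up/C4-down and 50 to 63 C3-down/C4-up genes in F. sonorensis. In F. ramosissima it held 14 to 26 and 42 to 65. Without control library 1 or 2 of F. ramosissima it held 26 of the 49 C3-up/C4-down genes there in place of 18, so the larger side turned. Against 155 genes as reported, the rule was met by 94 with a pseudocount of 5, 49 with a minimum of 10 TPM, 25 with a change of at least 1, 413 with overlap allowed, and 100 under all 3 scalings. Leaving out 1 library gave 161 to 267, of which 138 to 151 were among the 155. Fewer libraries overlap less, and the medians shift too. Calls in F. sonorensis went from 76 of the 155 genes to 26 with a minimum of 10 TPM, where only 49 of the 155 were tested. There were 43 calls in the 24-library model and 56 to 76 without 1 library. In F. ramosissima they went from 0 to 29 in the 24-library model, 1 with library weights and 0 to 1 without 1 library. Called differences between these species went from 1 to 5 with a pseudocount of 5, 3 with quantile normalization, 0 with a minimum of 10 TPM (Gene08109 was not tested there), 3 with no minimum, 13 in the 24-library model and 4 with weights. They were 1 to 2 without 1 library, with 2 when control library 1 of F. sonorensis or control library 1 or 3 of F. ramosissima was left out. With the library number as a replicate block, 78 genes were called in F. sonorensis, 0 in F. ramosissima and 1 for the difference. Under these alternatives the share of all genes called was counted only for F. ramosissima in the 24-library model, where it was 16.1%. The other member counts have no such share beside them, so they are not read as a trait of the members.

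Of 182 alternative values for the 6 named IDs, 165 kept their direction and side of the threshold, 7 came to pass it and 10 turned in sign. Gene19186 in F. sonorensis (-0.05 as reported) was 0.063 after median-ratio scaling and 0.015 with weights, and -0.23 to 0.19 without 1 library, the highest when control library 1 was left out and 0.04 when low CO2 library 2 or 3 was. Gene30969 in F. ramosissima (0.02) was -0.017 with a pseudocount of 5 and -0.14 with weights, and -0.38 to 0.30 without 1 library, the lowest when control library 3 was left out, and -0.05 and -0.07 when low CO2 library 1 or 2 was. Neither passed the test. Over the alternatives the limma adjusted p of Gene08109 ran from 5.07e-06 to 0.000306 in F. sonorensis. In F. ramosissima it ran from 8.53e-05 to 0.564. It ran from 0.00013 to 0.0018 for Gene30969 and from 0.000247 to 0.00687 for Gene32160 in F. sonorensis. For Gene25523 there, it passed with weights (0.0120), without control library 1 (0.0347) and without low CO2 library 3 (0.0447). In F. ramosissima Gene32160 passed in the 24-library model (limma adjusted p = 0.00344). Other causes of these changes were not tested, and what depth limits is unknown with TPM.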
